A study of Rattus norvegicus with 4 samples.

Results

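The genes described here are markers of the macroglia of the retina, that is of Mueller glia and astrocytes. A set of 10 genes was chosen by symbol, and 8 of the 14485 gene names with a value belonged to it. Slc1a3, Vim, Gfap, Apoe, Dkk3, Clu and Hes1 were listed under these symbols, and Car2 under its older symbol Ca2. Glul and Sox9 had no matched row and were not analysed here. The RNA came from eye and from retina of rats of the pigmented Long Evans strain, wild type in genotype, with neither a treatment nor an age in the labels. The labels give 2 technical replicates for each tissue and RNA pooled from 5 rats for each library, and each tissue had 1 column of values, called its library. Differences between the libraries thus come without replicates and without p-values. The sample descriptions name retina mRNA for both tissues, and the names eye and retina follow the tissue labels.

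Mueller glia span the whole depth of the neural retina. They take up transmitter released by neurons, buffer potassium and water, handle carbon dioxide and hold the tissue together with a scaffold of intermediate filaments. Astrocytes lie in the nerve fibre layer, along the axons of ganglion cells and the surface vessels, and hold more of the filament protein GFAP than resting Mueller glia do. Most of the 8 genes are also used outside the retina, where an eye holds lens, cornea, pigment epithelium, muscle and connective tissue.

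The unit was inferred from the values to be RPKM, in which reads are divided by the length of the gene model and by the total of the library. The totals recovered from them were 28071917 reads for eye and 51944762 for retina. A gene was called at a 2-fold difference among the 13259 genes with at least 1 RPKM in either library. Intervals are exact 95% intervals of the recovered reads. They cover counting error only, and no variation between animals or preparations, because each tissue had 1 column. PCR copies were not told apart, so the intervals may also be too narrow for counting error.

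The promoters of Vim, Gfap and Hes1 are shown because Vim and Gfap were the 2 genes called and because Hes1 is a known target of the Notch pathway, whose DNA-binding factor is RBPJ. Of the 10 genes, 6 had an entry in the RefSeq promoter table. The sequences are the 250 bases before the RefSeq start on the rat assembly GRCr8, which is not the build used for the values. The Vim promoter lay at chr17:81577011-81577260 on the plus strand, that of Gfap at chr10:88361662-88361911 on the minus strand and that of Hes1 at chr11:84213046-84213295 on the minus strand. Each is written 5′ to 3′ along its gene, with motif matches in capitals.
Vim: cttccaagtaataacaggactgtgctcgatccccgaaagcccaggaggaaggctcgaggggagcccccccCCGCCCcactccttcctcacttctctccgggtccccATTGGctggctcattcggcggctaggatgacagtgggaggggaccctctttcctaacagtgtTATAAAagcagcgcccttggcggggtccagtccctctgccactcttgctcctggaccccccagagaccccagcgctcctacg
Gfap: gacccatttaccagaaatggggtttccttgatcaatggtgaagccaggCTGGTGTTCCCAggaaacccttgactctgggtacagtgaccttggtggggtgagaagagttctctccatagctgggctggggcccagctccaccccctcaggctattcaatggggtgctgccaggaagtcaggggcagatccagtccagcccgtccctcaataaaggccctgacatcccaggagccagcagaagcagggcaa
Hes1: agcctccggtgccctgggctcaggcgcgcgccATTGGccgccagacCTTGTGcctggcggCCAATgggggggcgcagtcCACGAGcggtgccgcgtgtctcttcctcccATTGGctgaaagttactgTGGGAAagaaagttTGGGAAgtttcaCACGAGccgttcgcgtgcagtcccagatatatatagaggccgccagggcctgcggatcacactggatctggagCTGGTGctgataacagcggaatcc
The motifs were searched on both strands. They were the TATA box as TATAAA, the CCAAT box as its own letters, the GC box as GGGCGG, the RBPJ core as TGGGAA, the N box of HES proteins as CACNAG, the STAT site as TTCNNNGAA and the AP-1 site as TGANTCA. Vim held a TATA box, a CCAAT box and a GC box, each once, and these motifs were found at least once in 13.1%, 34.3% and 32.4% of 27457 rat promoters of the same length. Gfap held an N box and an RBPJ core that abut without overlap. At least 1 RBPJ core was found in 21.6% and at least 1 N box in 36.8% of the promoters. Hes1 held 2 RBPJ cores, as 2.61% of the promoters did or more, 4 N boxes (0.193%) and 3 CCAAT boxes (2.73%). No STAT or AP-1 letters were matched in these 3 windows, and they were found in 7.52% and 6.36% of all promoters. A match of letters is a description and not a bound site.

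The glial genes differed among themselves in the direction of the difference between eye and retina. Of the 8 genes, 2 were called higher in the eye library, Vim and Gfap, beside 17.8% of all tested genes. None (0 of 8) was called lower, beside 7.95% of all tested genes. A count of 2 among 8 genes is close to that background. The same shares are the background for the counts of other lists given below. Of the 6 genes not called, Hes1, Clu and Apoe had their higher value in eye, and Slc1a3, Dkk3 and Car2 in retina. The median log2 fold of the 8 was 0.47, against -0.01 over all tested genes. The plot of levels in both libraries shows each gene's pair of values.

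**Figure D1:**
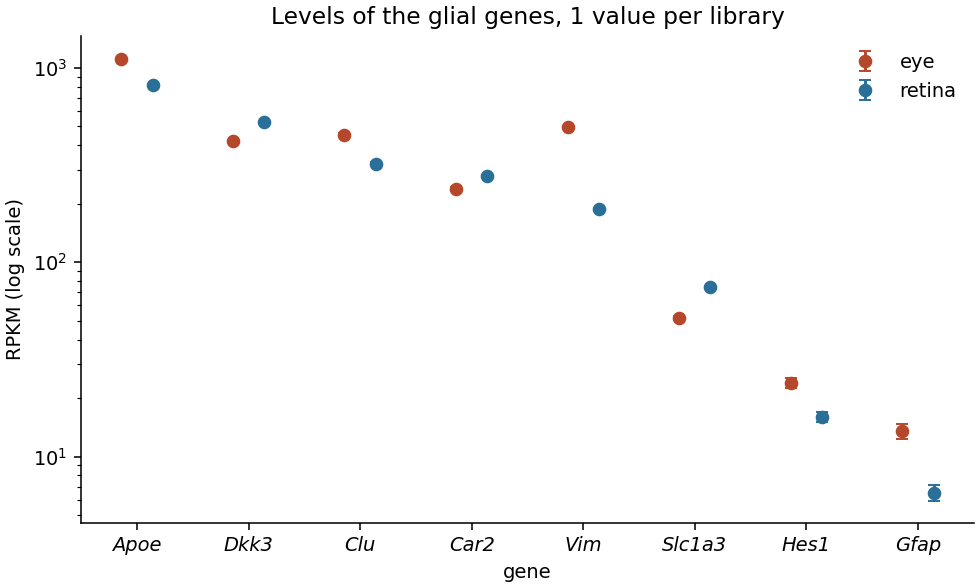
RPKM of the 8 glial genes in the eye library (left point of each pair) and the retina library (right point) on a log axis, 1 value per library, with exact 95% intervals of counting error that are mostly smaller than the points. Apoe was the most abundant in both libraries and Gfap the least, and Vim held the second place in eye and the fifth in retina.

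Vim and Gfap, the filament genes of the set, stood highest in eye relative to retina. Vim encodes vimentin, the main filament protein of Mueller glia and also of fibroblasts, endothelium and lens epithelium. Its level was 499 RPKM in the eye library (interval 493 to 505) and 187 in the retina library (184 to 190), a 2.67-fold higher level in eye (2.62 to 2.72). Only 13.2% of tested genes had a higher log2 fold. Gfap encodes the filament protein of astrocytes, which Mueller glia raise under stress. It had 13.5 RPKM in eye (12.3 to 14.7) and 6.52 in retina (5.93 to 7.14). The 2.07-fold difference had an interval of 1.82 to 2.35, which includes the threshold of 2, so its call is not secure at this depth of 509 and 455 recovered reads. The call of Gfap was lost with 1 added to each value, and those of both genes with equal summed values or with housekeeping genes held equal. Gfap stood at 2.70% of the Vim level in eye and 3.48% in retina.

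Among 13 other filament genes and their linkers, 5 were called higher in eye and 1 lower, with a median log2 fold of -0.59. Bfsp1, the beaded filament gene of the lens, stood at 1576 RPKM in eye and 3.46 in retina, and Des, the desmin gene of muscle, at 41.0 and 0.790. Nes (nestin), a filament of progenitors and reactive glia, was low in both, at 1.54 in eye and 0.570 in retina. Lmna, a nuclear lamin gene, and Plec, the cross-linker plectin, were also higher, at 44.2 and 7.15 in eye against 12.2 and 2.69 in retina. Lmnb2, another lamin, was the gene called lower, with 5.77 in eye and 11.9 in retina. The neuronal filament gene Nefl lay at 46.1 in eye and 72.9 in retina and was not called.

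Slc1a3 encodes GLAST, the glutamate transporter with which Mueller glia clear transmitter from the synaptic layers. Its level was 51.8 RPKM in eye (50.5 to 53.2) and 74.2 in retina (73.0 to 75.4), 1.43-fold lower in eye (1.39 to 1.48) and not called. It had the lowest fold of the 8 genes, and 74.9% of all tested genes had a higher one. Car2 encodes a cytosolic carbonic anhydrase of Mueller glia, pigment epithelium and ciliary epithelium. It lay at 238 RPKM in eye (233 to 243) and 277 in retina (273 to 281), 1.17-fold lower in eye (1.14 to 1.19). Dkk3 encodes a secreted relative of the Dickkopf proteins, several of which block Wnt signalling. It lay at 423 RPKM in eye (419 to 427) and 529 in retina (526 to 533), 1.25-fold lower in eye (1.24 to 1.27). For these 3 genes the retina library had the higher level, by less than the threshold and by more than counting error, but all 3 had the higher level in eye with the retinal neuron median at 0 (log2 folds of 0.39 for Slc1a3, 0.59 for Dkk3 and 0.69 for Car2). Slc1a3 was called lower in eye with equal summed values, at -1.16, as were 31.9% of all tested genes.

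Of 18 tested genes that handle glutamate, glutamine and GABA, 3 were called lower in eye, among them Slc38a3 and Slc1a7, and 1 higher (Slc1a5), with a median log2 fold of -0.28. Slc38a3, a glutamine transporter, was at 180 RPKM in eye and 397 in retina, a log2 fold of -1.14. Slc1a7, a glutamate transporter with a chloride conductance, was at 37.9 in eye and 96.3 in retina. Slc1a5, a neutral amino acid exchanger, was at 4.57 in eye and 1.78 in retina. Got1, an aspartate aminotransferase, had 142 RPKM in eye and 207 in retina and was not called. Slc1a2, another glutamate transporter, which bipolar cells use in retina, was chosen after its values were seen. It was at 28.5 in eye and 54.4 in retina, with a log2 fold of -0.93. The list thus holds transporters of neurons as well as of glia.

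Of 11 tested carbonic anhydrase genes and ion carriers beside Car2, 5 were called higher in eye and 0 lower, with a median log2 fold of 0.20. Car3, a muscle isoform, was at 44.7 RPKM in eye and 0.360 in retina. Car12, a membrane isoform, was at 13.9 in eye and 4.09 in retina, Car5b, a mitochondrial isoform, at 7.27 and 1.53, and Car4 at 1.29 and 0.274. Slc4a4, a sodium bicarbonate carrier, was at 6.67 in eye and 2.81 in retina. Car14, the membrane isoform of Mueller glia and pigment epithelium, stood at 166 in eye and 144 in retina, and Car11, a relative without enzyme activity, at 46.1 and 77.7, and neither was called.

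Dkk3 was the most abundant of the Dickkopf genes in both libraries. Of 12 tested genes of Dickkopf proteins, Wnt co-receptors, inhibitors and effectors, 3 were called higher in eye and 0 lower, with a median log2 fold of 0.16. Sfrp1, a secreted Wnt inhibitor, was at 79.3 RPKM in eye and 9.78 in retina, Dkk2 at 8.59 and 0.231, and Sfrp5 at 1.92 and 0.145. Ctnnb1 (beta-catenin) stood at 141 in eye and 158 in retina and was not called.

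Apoe and Clu encode secreted lipid carriers. Apolipoprotein E is made by Mueller glia and astrocytes, and in other tissues by macrophages. Apoe was the most abundant of the 8 genes, with 1114 RPKM in eye (1100 to 1130) and 816 in retina (809 to 824), ranks 26 and 14 among all genes. The level was 1.37-fold higher in eye (1.35 to 1.38) and not called. Clu encodes clusterin, an extracellular chaperone also called apolipoprotein J. It lay at 453 RPKM in eye (445 to 461) and 322 in retina (317 to 327), 1.41-fold higher in eye (1.37 to 1.44). Both had the higher level in retina with equal summed values. Both were called higher in eye with the retinal neuron median at 0, as were 44.6% of all tested genes. Of 17 other genes of lipoproteins, their receptors and lipid export, 4 were called higher in eye and 0 lower, with a median log2 fold of 0.19. Apod, an apolipoprotein of nerve sheath and connective tissue, was at 31.3 in eye and 0.544 in retina. Lpl (lipoprotein lipase) was at 27.6 in eye and 7.69 in retina, Pltp, a phospholipid transfer protein, at 52.2 and 24.8, and Apol3 at 1.59 and 0.444. The receptor gene Sort1 (sortilin) stood at 31.8 in eye and 47.3 in retina, and Nr1h2, a sterol-sensing nuclear receptor, at 42.4 and 52.6, and neither was called.

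Hes1 encodes a repressor that acts downstream of Notch and keeps progenitors and glia from becoming neurons. Its level was 23.9 RPKM in eye (22.4 to 25.5) and 15.9 in retina (15.0 to 16.9), 1.5-fold higher in eye (1.38 to 1.65) and not called. Its relative Hes5, which marks Mueller glia and their precursors, stood on the other side, at 7.58 in eye and 19.4 in retina, and was called lower. Hes1 had the higher level in retina with equal summed values. It was called higher in eye with the retinal neuron median at 0, as were 44.6% of all tested genes. Of 19 tested genes of Notch receptors, ligands, modifiers and HES or HEY factors beside Hes1, 2 were called higher in eye and 2 lower, with a median log2 fold of -0.21. The higher ones were Notch3, a receptor of vessel wall cells, at 6.96 in eye and 2.11 in retina, and Dll4, a ligand of endothelium, at 2.07 and 0.70. The lower ones were Hes5 and the ligand gene Jag2, at 8.44 in eye and 17.4 in retina. Hes6 stood at 20.8 in eye and 37.1 in retina, and Numb, a Notch antagonist, at 12.8 and 17.2, and neither was called. Rbpj and the receptor gene Notch1, chosen after their values were seen, had 9.32 and 4.49 RPKM in eye against 7.62 and 4.70 in retina and were not called.

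**Figure D2:**
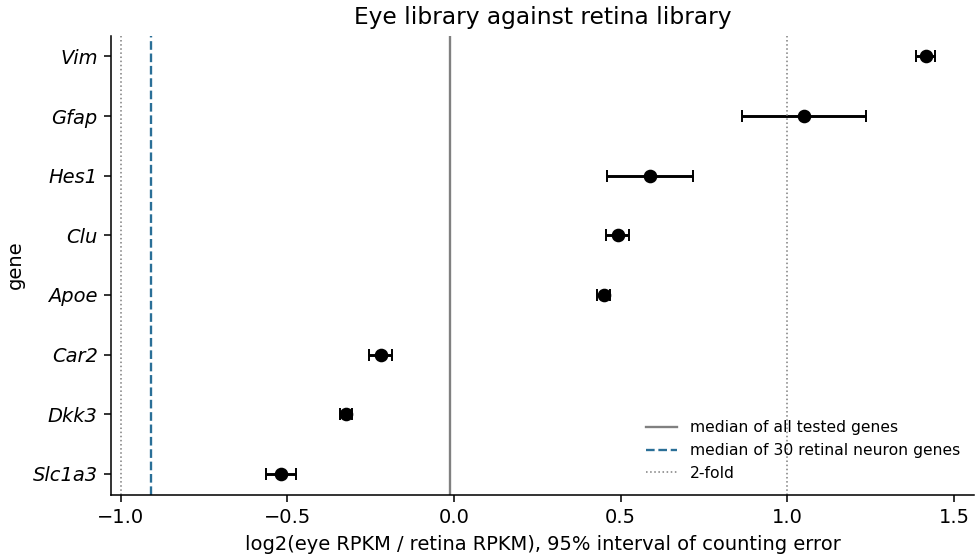
Log2 ratio of eye over retina RPKM for each glial gene, with exact 95% intervals of counting error. The solid line marks the median of all tested genes (-0.01), the dashed line that of 30 retinal neuron genes (-0.91) and the dotted lines 2-fold. The 8 points run from Slc1a3 (-0.52) to Vim (1.41), and all lie to the right of the neuron median.

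A gene's difference between eye and retina depends on how the libraries are scaled, and ratios between genes within a library do not. In units of Slc1a3, Vim stood at 9.64 in eye and 2.52 in retina, a 3.82-fold difference (interval 3.68 to 3.96). Gfap relative to Slc1a3 was 2.96-fold higher in eye (2.60 to 3.38), Hes1 2.15-fold (1.96 to 2.37), Clu 2.01-fold (1.94 to 2.09) and Apoe 1.96-fold (1.89 to 2.02). Car2 and Dkk3 kept closer to Slc1a3, at 1.23-fold (1.18 to 1.28) and 1.14-fold (1.11 to 1.18). These intervals are normal approximations on the log scale and cover counting error only. Slc1a3 had the lowest fold of the glial genes, so every other gene had to stand higher in eye relative to it. Slc1a3 stood in for Glul, the planned reference, which had no matched row. Beyond counting error, the genes did not share the same fold in these 2 libraries. Slc1a3, Dkk3 and Car2 lay together, Apoe, Clu and Hes1 lay above them, and Gfap and Vim lay farthest up.

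The order of the levels was Apoe, Vim, Clu, Dkk3, Car2, Slc1a3, Hes1 and Gfap in eye, and Apoe, Dkk3, Clu, Car2, Vim, Slc1a3, Hes1 and Gfap in retina. Counting intervals of neighbours overlapped in neither library. The closest neighbours were Clu and Dkk3 in eye, 1.07-fold apart, and Vim and Clu there, 1.10-fold apart. Such small gaps between genes also rest on the gene model lengths, whose error the intervals do not hold. The 8 genes summed to 2816 RPKM in eye and 2229 in retina. That was 0.538% of all values in eye and 0.664% in retina, or 0.828% and 0.668% with lens genes left out of the sums.

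Set beside neurons of the retina, the glial genes lay higher in eye. Of 30 genes of rods, cones, bipolar, amacrine and ganglion cells, 0 were called higher in eye and 12 lower, with a median log2 fold of -0.91, or 1.88-fold lower. Gnat1, the rod transducin, stood at 3959 RPKM in eye and 7967 in retina, and Sag, rod arrestin, at 1776 and 3067 and was not called. The 3 lowest folds were those of Pde6h, a cone phosphodiesterase subunit, at 27.4 in eye and 80.3 in retina, Slc17a7, the vesicular glutamate transporter, at 270.1 and 727.5, and Slc32a1, the vesicular GABA transporter, at 23.7 and 62.7. Slc1a3 had a higher fold than 26 of these 30 genes, Dkk3 and Car2 than 28 each, and Vim, Gfap, Apoe, Clu and Hes1 than all 30. The median of all tested genes (-0.01) also lay above the neuron median, so this was not particular to the glial genes. Of all tested genes, 74.9% had a higher fold than Slc1a3, 65.5% than Dkk3, 60.4% than Car2 and 30.7% than Apoe. The share was 29.4% for Clu, 26.5% for Hes1, 17.3% for Gfap and 13.2% for Vim. Relative to the neuron median, the eye level was 1.31-fold up for Slc1a3, 1.5-fold for Dkk3, 1.61-fold for Car2, 2.56-fold for Apoe, 2.64-fold for Clu, 2.83-fold for Hes1, 3.89-fold for Gfap and 5.01-fold for Vim. These are descriptions of 2 libraries, with no test. In bulk tissue, fewer cells of a type and less RNA per cell cannot be told apart.

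Other markers of Mueller glia went both ways. Of 23 tested, 8 were called higher in eye and 1 lower, with a median log2 fold of 0.81. The next 3 genes are named for their role in Mueller glia and were chosen after their values were seen. All 3 had the lower value in eye, unlike the list median, so they do not stand for the list. Rlbp1, the retinaldehyde carrier CRALBP shared with pigment epithelium, was at 145 RPKM in eye and 159 in retina, a log2 fold of -0.13. The water channel gene Aqp4 stood at 16.1 in eye and 18.8 in retina, and the potassium channel gene Kcnj10, through which Mueller glia buffer potassium, at 10.5 and 19.8. The genes called higher included Timp3, a metalloproteinase inhibitor of the pigment epithelium's basement membrane, at 171 in eye and 51.6 in retina, and Ptn, the growth factor pleiotrophin, at 140 and 40.8. The metallothionein gene Mt2A was low, at 3.07 in eye and 0.754 in retina. Itm2b, a membrane protein gene, stood at 450.5 in eye and 240.6 in retina and was not called.

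Of 13 other astrocyte genes, 6 were called higher in eye and 0 lower, with a median log2 fold of 0.72. Gjb6, a connexin of astrocytes and of epithelia, was at 14.2 RPKM in eye and 1.18 in retina, a log2 fold of 3.49. Fgfr3, a growth factor receptor, stood at 20.3 in eye and 5.41 in retina, and Gja1, the main astrocyte connexin, also found in many other cells, at 128 and 44.8. Aldoc, the aldolase of astrocytes, stood at 724 in eye and 944 in retina, and Sparcl1, a matrix protein gene, at 150.0 and 150.5, and neither was called. Of 17 tested genes of the reactive glial response, 10 were called higher in eye and 0 lower, beside 17.8% and 7.95% of all tested genes. Their median log2 fold was 1.09. The list holds Gfap. It also shares Nes and Cd44, both called higher, with the astrocyte list, and Nes with the filament list. Hspb1, a small heat shock protein gene, was at 378 in eye and 8.42 in retina, Ednrb, an endothelin receptor gene, at 37.2 and 5.41, and the chemokine gene Ccl2 at 2.79 and 0.0987. Stat3, which carries the signal of glial cytokines and was chosen after its values were seen, was at 19.2 in eye and 19.0 in retina. Il6st, their shared receptor chain, had a level of 25.6 in eye and 20.6 in retina.

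Markers of other cell types moved in the same direction as Vim and Gfap, and their part in those differences was not tested. The lens list summed to 182800 RPKM in eye and 1969 in retina, with 17 of 18 genes called higher. The stroma list summed to 3672 in eye and 374.6 in retina (12 of 13 higher), the muscle list to 3611 and 14.6 (12 of 12), the myelin and Schwann cell list to 386 and 63.2 (10 of 12) and the endothelial list to 129 and 63.1 (6 of 9). The pigment cell list summed to 2342 in eye and 436.9 in retina (11 of 12), the macrophage list to 192 and 45.8 (8 of 10), the corneal epithelium list to 4804 and 148 (9 of 9) and the list of ciliary body, iris and outflow tissue to 1278 and 156.7 (4 of 9). None of the listed genes with a value (0 in each of these lists) stood at 0 in either library.

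**Figure D3:**
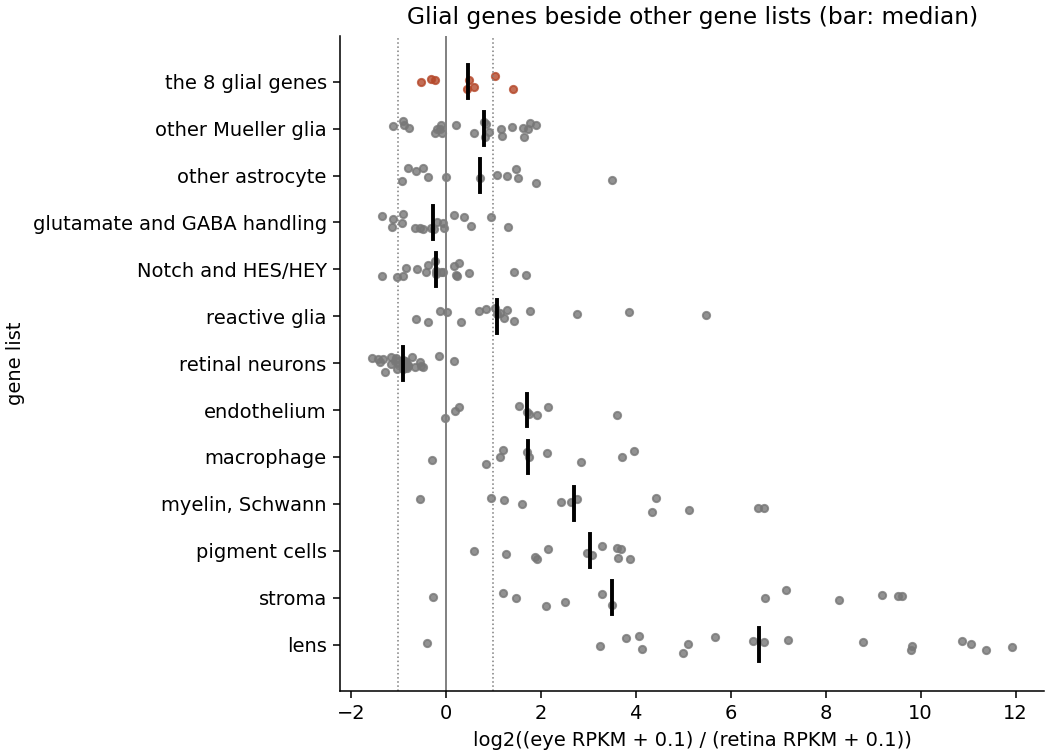
Log2((eye RPKM + 0.1) / (retina RPKM + 0.1)) of each tested gene by list, with the median as a bar, a line at 0 and dotted lines at 2-fold. The 8 glial genes have a median of 0.47, between the retinal neurons (-0.91) and the lists of tissue outside the neural retina, such as stroma (3.51) and lens (6.59).

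The directions within the set turned with the scaling of the libraries. The 18 lens genes with a value, of 26 listed, held 35.0% of all summed values in eye and 0.587% in retina. The choice of what to hold equal moved all log2 folds together. The shift was 0.19 with totals without lens genes, which was taken from recovered reads and not from summed values. It was -0.45 with the median of housekeeping genes at 0, -0.64 with equal summed values and 0.91 with the median of retinal neuron genes at 0. Vim and Gfap kept the higher level in eye under each of these. With equal summed values Apoe, Clu and Hes1 had their higher level in retina, at log2 folds of -0.19, -0.15 and -0.05. With the median of housekeeping genes at 0, Apoe had equal levels in both. With the retinal neuron median at 0, Slc1a3, Dkk3 and Car2 had theirs in eye, at 0.39, 0.59 and 0.69, and Apoe, Clu and Hes1 were called higher with Vim and Gfap. That scaling also called 44.6% of all tested genes higher, so these calls lie near the background.

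**Figure D4:**
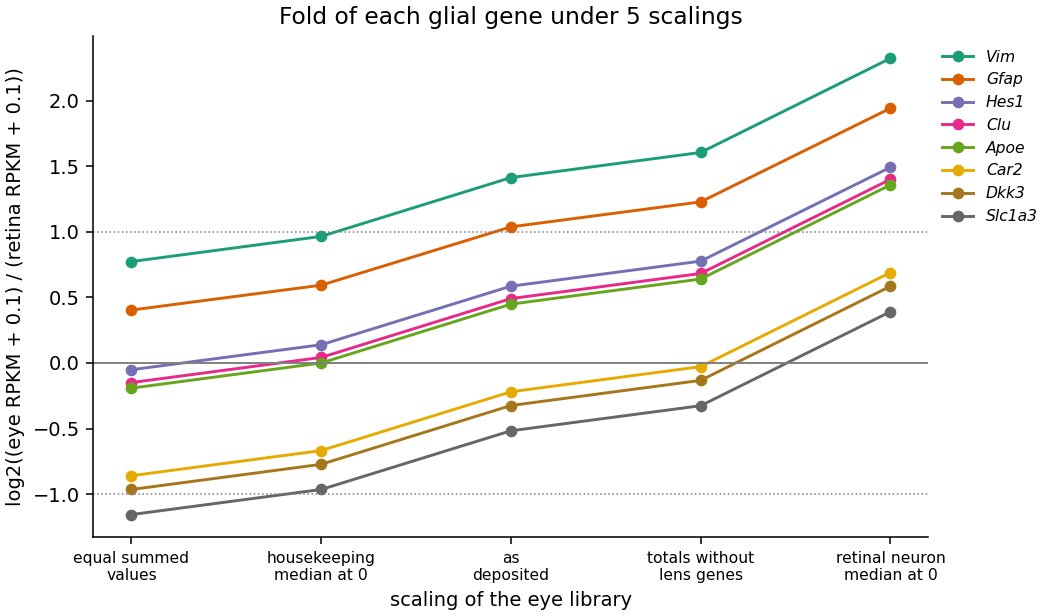
Log2((eye RPKM + 0.1) / (retina RPKM + 0.1)) of each glial gene with the eye library scaled in 5 ways, ordered by the size of the shift, with a line at 0 and dotted lines at 2-fold. Each scaling is 1 factor on the eye library, so the curves run in parallel by construction, and what changes is the side of 0 on which a gene lies.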

How the data were processed

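RNA of 4 samples had been sequenced, 2 technical replicates of eye and 2 of retina, and each tissue had 1 column. The tools named, per the submitters' processing notes, are GSNAP and HTSeq, and the build is rn4. Their versions, settings, annotation and strand use, and whether a column joins both replicates, were not given in the sources used here. Deposited values are taken as RPKM, inferred from the values. Genes that overlap a neighbour may share its reads.

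Each table held 14533 rows. The 7 rows with ND were dropped, and for 41 names on several rows the most finely printed row, then the higher, was kept. Ratios of low values gave the ratio of the library totals (1.85). The eye total came from 20 genes whose model length equalled the gene span of the GRCr8 reference table, against 15 for the next most common total. Whole reads, the smallest that fit, were then found for 13980 of 13980 finely printed genes (6 or more decimals), within the rounding of the printed value. The true reads may be a multiple, and intervals would then be narrower. Folds and values of named genes are as deposited. Calls used log2((eye + 0.1) / (retina + 0.1)), which understates the change of low genes. The recovery was tested on simulated data. Python 3.11.15, numpy 2.4.6, pandas 2.3.3 and scipy 1.17.1 were used.

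The members and gene lists were chosen with earlier results of these data known. Named were all members and, of each list, its called genes where 5 or fewer were called in a direction, otherwise the 3 with the largest fold, and the 2 most abundant. Rlbp1, Aqp4, Kcnj10, Slc1a2, Rbpj, Notch1 and Stat3 fall outside this rule and were chosen after their values were seen. Of lists of cell types outside the neural retina only counts and sums are given, and 1 gene that the rule takes is not reported here. Planned ratios to Glul were replaced by ratios to Slc1a3. Alternatives were other added values, minima, folds and scalings.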

Additional observations from a re-analysis of the deposited data

How the results depend on the processing

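The values below describe 2 libraries without replicates. The number of glial genes called higher in eye, 2 as reported, came to 1 (Vim) after adding 1 to the values, 0 at a fold of 4, 0 with equal summed values, 0 with the housekeeping median at 0 and 5 with the retinal neuron median at 0. Of all tested genes, 17.8% were called higher as reported, 14.4% after adding 1 and 9.07% at a fold of 4. The share was 11.5% with equal summed values, 13.0% with the housekeeping median at 0 and 44.6% with the retinal neuron median at 0. The number of glial genes called lower, 0 as reported, was 1 with equal summed values (Slc1a3), where 31.9% of all tested genes were called lower. Both counts were unchanged with 0.01 added, no minimum, a minimum of 5, totals without lens genes, the trimmed mean of log ratios, the median of ratios, and without Car2, an alternative chosen after seeing the data. The median log2 fold relative to all tested genes, 0.48 as reported, was 0.53 with a minimum of 5, where fewer low genes are tested. Over all tested genes, 69.2% of the called ones were higher in eye as reported, 83.4% with totals without lens genes, 26.4% with equal summed values, 36.2% with the housekeeping median at 0 and 99.6% with the retinal neuron median at 0. Over all genes 1054 were called lower as reported, 655 after adding 1, 560 without lens genes, 12 at a fold of 4, 4232 with equal summed values, 3051 with the housekeeping median at 0 and 21 with the retinal neuron median at 0. The number higher, 2366, was 1471 at the minimum of 5, 1203 at the fold of 4, 1519 with equal summed values and 5913 with the retinal neuron median at 0. The scalings multiply the eye library by 1 factor each, an added value changes the folds themselves (Gfap had a log2 fold of 0.95 after adding 1, against 1.04 as reported), and the other settings change the threshold or the genes tested. Counted per gene and scaling, 7 log2 folds changed sign, none of them of a called gene (0 reversed). Apoe was counted with equal summed values and again with the housekeeping median at 0, there at only -0.0001. No paired analysis was possible because each tissue has a single column, so that no replicate could be left out either. Count methods were planned only for tissues with several columns of counts and were not run.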

Other observations

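Of 6 tested SOX factors of glia and progenitors beside Sox9, 1 was called higher in the eye library (Sox10, a factor of Schwann cells and oligodendrocytes, at 8.09 RPKM in eye and 1.43 in retina) and 0 lower. Sox2, a factor of Mueller glia, stood at 8.48 in eye and 9.06 in retina, and Sox4 at 7.46 and 7.38. Of 10 genes of abundant secreted or chaperone proteins, 5 were called higher and 0 lower, with a median log2 fold of 1.00. Sparc, a matrix protein gene, stood at 1335 in eye and 310 in retina, and Cst3 (cystatin C), not called, at 1138 and 592. Ttr (transthyretin) was at 932 in eye and 211 in retina, B2m, a class I antigen chain, at 299.8 and 47.3, Prdx6, a peroxiredoxin, at 62.5 and 29.9, and Serpinf1, the secreted factor PEDF of the pigment epithelium, at 117 and 4.50. Of 15 housekeeping genes, 3 were called higher (B2m, Rplp0 at 656.5 in eye and 241.8 in retina, and Actb at 1231 and 509) and 1 lower (Gapdh, at 2.71 and 6.28). Gapdh had the lowest level of this list in both libraries, with 97 and 416 recovered reads, and the reason was not tested. The log2 folds ran from -1.18 (Gapdh) to 2.66 (B2m), so these genes were not equal between the libraries. Their median was 0.45, close to the 0.47 of the glial genes.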
